A study of Rattus norvegicus with 60 samples.

Results

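The effect of lithium chloride (LiCl) was examined as the mean of its effects in 3 brain regions of the rat, the hippocampus, the cortex and the striatum, to find RNAs that moved the same way in every region. The comparison drew on 30 of the 60 arrays of the series, chosen by their titles: 5 LiCl and 5 chow vehicle arrays in each of the 3 regions. Rats of the strain labelled SD received chow with 0.2% LiCl for 21 days, and the controls received plain chow, the chow vehicle. The other 30 arrays came from rats injected with lamotrigine at 30 mg/kg or with its vehicle and are used only where the 2 drugs are set side by side. The regions were microdissected and snap-frozen, and 1 array measured each sample. The numbers in the sample descriptions were read as animal numbers, which gives 7 LiCl and 7 chow vehicle animals, of which 6 gave all 3 regions. The regional effects therefore share animals and are not independent of each other. The tissue entry of the labels reads mouse where the organism, the series title and the array read rat.

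Lithium is a mood stabilizer whose direct targets are enzymes that it inhibits in competition with magnesium. The best known are glycogen synthase kinase 3, which restrains Wnt signalling and phosphorylates many neuronal proteins, and the phosphatases that recycle inositol phosphates after phospholipase C has acted. Lithium also affects cyclic AMP and protein kinase C signalling, and early response genes are a common RNA readout of such signals in neurons.

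For each probe set the difference of LiCl minus chow vehicle was estimated on log2 intensities in each region, and the 3 differences were averaged in 1 limma fit with the animal as a random block. A probe set was called when its average had a Benjamini-Hochberg adjusted p under 0.05, taken over 31042 probe sets. The average passed in 638 probe sets, or 2.06% of those tested, with 346 (1.11%) higher and 292 (0.941%) lower after LiCl. When each array was instead centred on its own median, 298 of 812 called probe sets were higher. Of the 638, 575 had the same sign in all 3 regions, which is 90.1% of the called and 1.85% of all probe sets. Over all probe sets, 24.3% had 1 sign in the 3 regions. A call on the mean of the 3 differences itself favours a shared sign, so the higher share among the called is no separate result. By the limma contrasts of the single regions, 119 called probe sets (0.383% of all) had 1 sign and an unadjusted p under 0.05 in each region. The 575 comprised 320 higher (1.03%) and 255 lower (0.821%) probe sets, and 352 of them carried exactly 1 gene symbol, for 154 genes that rose and 181 that fell. A further 12 carried several symbols and 211 were unnamed. The effects were small: the median size among the called was 0.228 on the log2 scale, 232 reached 1.2-fold and 14 reached 1.5-fold.

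The count of calls moved with single animals and arrays. It lay between 401 and 1033 when 1 array was left out and between 248 and 910 when 1 animal was left out, with the lowest count without chow vehicle animal 50. Of 71 called genes named here, 7 kept their call in each of the 60 alternatives run, which include leaving out each array and animal. These were Nr4a3, Klf2, Ier2 and Rbm5, which rose, Vps52 and Zfp597, which fell, and Ccn1, which rose and was too dim for 1 of the 60. None of the 71 changed direction in any of them.

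The arrays matched their region labels by most of the markers looked at. Drd2, a dopamine receptor of striatal neurons, read from 11.1 to 11.5 in the striatum and from 5.08 to 6.08 in the other 2 regions. Slc17a7, the vesicular glutamate transporter of cortical and hippocampal neurons, read from 11.4 to 12.1 there and from 4.87 to 7.23 in the striatum, and Prox1, a marker of dentate granule cells, read from 9.03 to 9.70 in the hippocampus and no higher than 7.54 elsewhere. The other hippocampal markers looked at did not set it apart. Zbtb20 read from 10.5 to 11.2 in the hippocampus and up to 10.6 in the striatum, and Dsp from 5.63 to 6.25 in the hippocampus and up to 6.54 in the cortex. The median intensity of an array was 93.5 at the lowest, and its middle value in the 6 groups lay between 95.1 and 97.5. The spread of an array, taken as the distance between its upper and lower quartile of log2 values, was 3.37 ± 0.0566 (SD, n = 5) with LiCl and 3.58 ± 0.0223 with chow vehicle in the cortex, with no overlap. It ran the other way in the hippocampus, with 3.59 ± 0.0289 and 3.48 ± 0.0563. Choroid plexus genes, summed over 16 genes, reached 25647 and 12436 on 2 hippocampus LiCl arrays, 14265 on 1 hippocampus chow vehicle array, and 49182 and 38423 on 2 striatum LiCl arrays, while the other 25 arrays stayed below 10000. The part of this tissue in the results was not tested, and values without these 5 arrays are given beside the genes that lost their call without them.

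**Figure D1:**
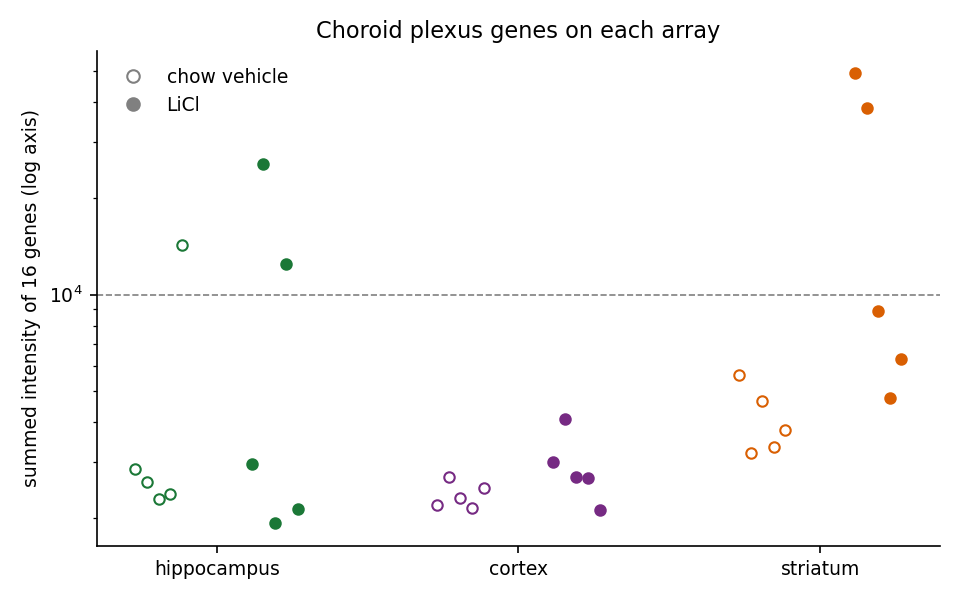
Summed intensity of 16 choroid plexus genes (log axis) on each of the 30 arrays, by region, with open circles for chow vehicle and filled circles for LiCl. The dashed line marks 10000, and 5 arrays lie above it: 2 of hippocampus LiCl, 1 of hippocampus chow vehicle and 2 of striatum LiCl, the highest at 49182.

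The 15 named rises were those with the largest average among called genes of 1 sign in every region. Among them were the early response genes Nr4a3, Arc, Klf2, Ier2, Dusp1 and Gadd45g. The rise was not large in every region: Arc and Dusp1 read 0.04 and 0.17 in the cortex. The promoters shown are those of Ier2, an immediate early transcription regulator, and of Dusp1, a phosphatase that switches off MAP kinases, because both hold a complete cyclic AMP response element. The sequences are the 250 bases before the annotated start, from RefSeq on the build GRCr8, plus strand, at chr19:40399123-40399372 for Ier2 and chr10:17184603-17184852 for Dusp1. Capitals mark the element TGACGTCA and its shorter core TGACG on either strand.
Ier2: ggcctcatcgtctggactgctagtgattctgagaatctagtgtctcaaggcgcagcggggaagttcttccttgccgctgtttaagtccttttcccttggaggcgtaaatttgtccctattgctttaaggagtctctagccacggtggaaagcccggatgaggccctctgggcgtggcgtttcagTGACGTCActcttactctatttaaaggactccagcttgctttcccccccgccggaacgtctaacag
Dusp1: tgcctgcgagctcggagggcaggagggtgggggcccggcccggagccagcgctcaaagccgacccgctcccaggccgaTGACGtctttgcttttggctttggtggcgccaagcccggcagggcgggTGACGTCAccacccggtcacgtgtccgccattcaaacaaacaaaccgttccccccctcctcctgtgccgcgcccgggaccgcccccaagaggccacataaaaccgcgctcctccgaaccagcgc
The full element lies 66 bases before the start of Ier2 and 124 bases before that of Dusp1. Of 154 genes that rose in every region, 129 had a promoter in the table, and 6 of these (4.65%) held the full element on either strand: Ier2, Dusp1, Gas5, Lrrc8a, Nedd1 and Rps13. It stood in 5 of 148 promoters (3.38%) of genes that fell, in 310 of 11733 promoters (2.64%) of genes with a tested probe set, and in 466 of all 27457 (1.70%). The core alone or within the full element stood in 24.8% of the promoters of risen genes, in 35.1% of those of fallen genes and in 25.8% of those of tested genes. The CArG box, the core of the serum response element, stood in 3 promoters (2.33%) of risen genes and in 145 (1.24%) of tested genes, and neither Ier2 nor Dusp1 held one in these 250 bases. Nr4a3, Arc and Klf2 are named only.

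Nr4a3, an early response nuclear receptor of the NR4A family, had the largest average among the named rises. Levels below are log2 intensities in the order of the replicate numbers. In the hippocampus they were 7.36, 6.53, 6.74, 6.70 and 6.48 with LiCl and 6.26, 6.15, 6.28, 6.12 and 6.07 with chow vehicle. In the cortex they were 7.07, 7.20, 7.10, 6.83 and 6.71 with LiCl and 5.75, 5.95, 5.97, 6.04 and 6.42 with chow vehicle. In the striatum they were 6.44, 6.49, 6.57, 6.31 and 6.38 with LiCl and 5.90, 5.64, 5.84, 5.83 and 5.95 with chow vehicle. Every LiCl array lay above every chow vehicle array of its region, a separation found in 2 of 31042 probe sets (0.00644%). The highest hippocampus LiCl array stood apart from the other 4, and the groups came nearest to each other in the hippocampus. The differences were 0.60 ± 0.12 (SE) in the hippocampus, 0.95 ± 0.12 in the cortex and 0.60 ± 0.12 in the striatum, for an average of 0.72 ± 0.076 (1.64-fold, adjusted p = 5.19e-06). The differences between regions did not pass the F test (adjusted p = 0.183). Nr4a3 has 2 other probe sets, and neither was called: their averages were -0.34 ± 0.11 (adjusted p = 0.0906) and -0.23 ± 0.096 (adjusted p = 0.21). The rise therefore rests on 1 of 3 probe sets of the gene. The other probe set whose groups were apart in every region, 1391654_at, is unnamed and rose by an average of 0.64 ± 0.071 (adjusted p = 6.47e-06), and the unnamed 1385757_at rose by 0.84 in the hippocampus, 0.84 in the cortex and 0.76 in the striatum.

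Klf2, a zinc finger transcription factor best known from blood vessel walls and lymphocytes, was nearly even across regions. In the hippocampus its levels were 8.04, 7.88, 7.93, 8.14 and 8.55 with LiCl and 7.23, 7.58, 7.60, 7.74 and 7.42 with chow vehicle. Cortex levels were 7.93, 7.47, 8.22, 8.55 and 8.21 with LiCl and 7.31, 7.41, 7.17, 7.59 and 7.78 with chow vehicle. Striatum levels were 7.57, 7.58, 8.09, 7.76 and 8.27 with LiCl and 7.25, 7.38, 7.16, 7.60 and 7.32 with chow vehicle. The groups were apart in the hippocampus and shared a narrow range in the other 2 regions, where LiCl replicate 2 of the cortex and replicates 1 and 2 of the striatum were lowest. The differences were 0.57, 0.64 and 0.52, and the average was 0.58 ± 0.098 (1.49-fold, adjusted p = 0.00205). A second of its 5 probe sets was also called (0.54 ± 0.10, adjusted p = 0.00587), and the other 3 were not. All 21 endothelial and pericyte genes measured were uncalled, with 19 above 0 and a median of 0.095.

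Ier2 followed the same direction with a smaller step in the cortex. In the hippocampus its levels were 7.20, 7.16, 6.88, 7.12 and 7.17 with LiCl and 6.31, 6.95, 6.49, 6.80 and 6.38 with chow vehicle. In the cortex they were 7.03, 7.26, 7.41, 7.42 and 7.18 with LiCl and 6.78, 7.04, 6.94, 6.96 and 7.21 with chow vehicle. In the striatum they were 6.30, 6.41, 6.80, 6.31 and 6.24 with LiCl and 5.50, 5.82, 5.86, 5.72 and 6.07 with chow vehicle. Groups were apart in the striatum, while 1 chow vehicle array of the hippocampus (replicate 2) and 2 of the cortex (replicates 2 and 5) reached into the LiCl range. The average was 0.47 ± 0.074 (adjusted p = 0.00111), from 0.52, 0.28 and 0.62. Ccn1, a secreted matrix protein and early response gene, read at the dim end of the array, from 3.64 to 4.27 with LiCl and from 3.41 to 3.75 with chow vehicle over the 3 regions. It rose by 0.33 ± 0.057 (adjusted p = 0.00205), with 15 of 15 LiCl arrays above the mean of their chow vehicle group. Rbm5, an RNA-binding regulator of splicing, rose by 0.39 ± 0.067 (adjusted p = 0.00218), with 0.50 in the hippocampus, 0.28 in the cortex and 0.38 in the striatum. Its other 2 probe sets averaged 0.09 and 0.13 and were not called.

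**Figure D2:**
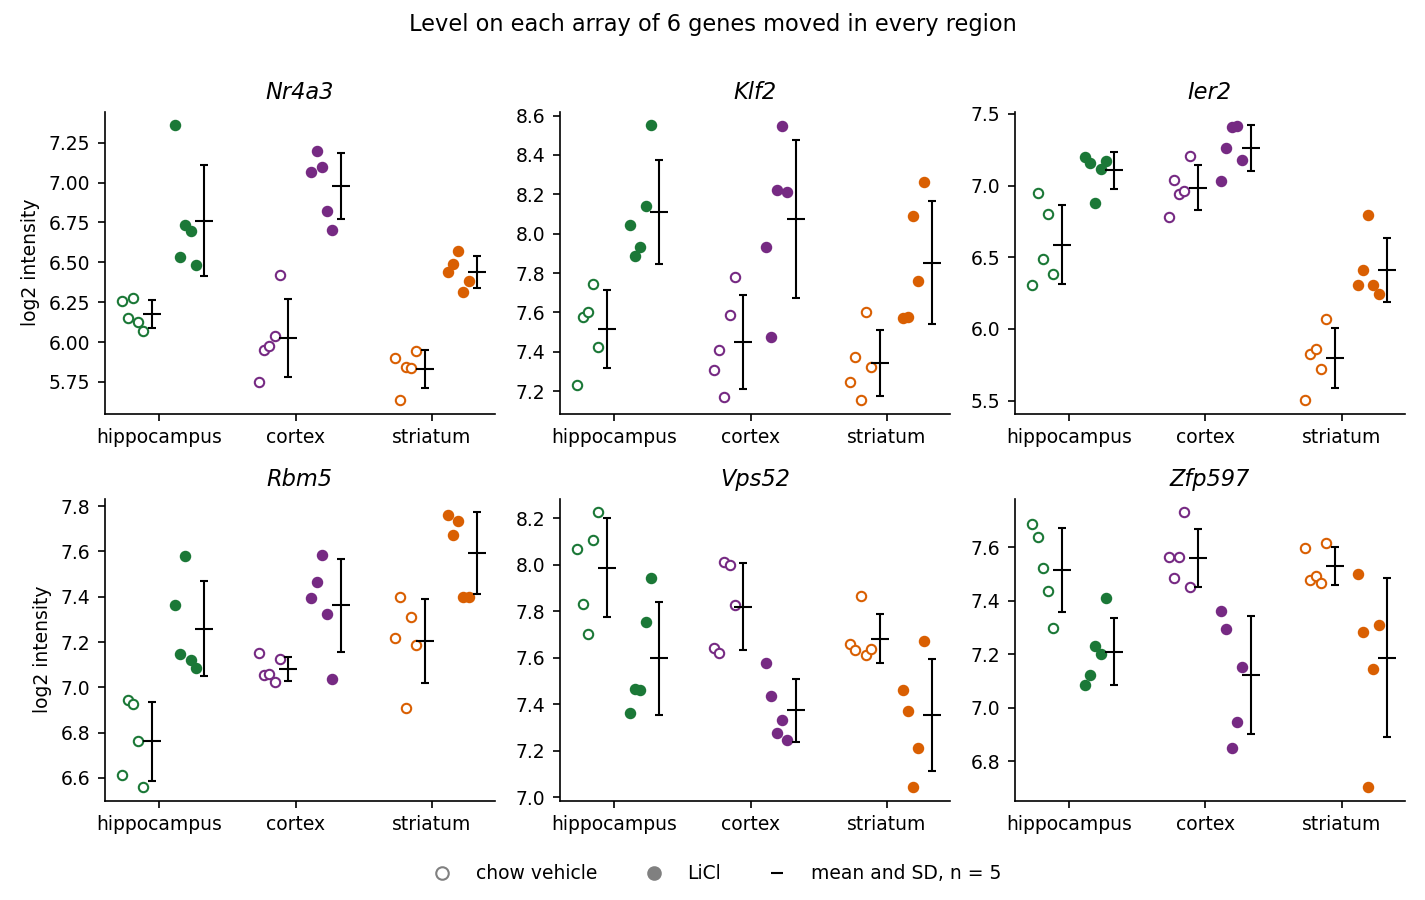
Log2 intensity of 6 genes on each of the 30 arrays, by region, with open circles for chow vehicle, filled circles for LiCl, and the mean with its SD beside each group of 5. Nr4a3 groups are apart in all 3 regions, Klf2, Ier2 and Rbm5 are higher with LiCl with some overlap, and Vps52 and Zfp597 are lower, with averages of -0.38 and -0.35.

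The other early response genes were less even, and the group as a whole did not rise. Of 27 immediate early genes measured by their brightest probe set, 5 rose (Arc, Ier2, Dusp1, Ccn1 and Jun) and Fosl2 fell, against 0.943% of 14217 genes called higher and 1.06% called lower. By this choice of probe set Nr4a3 entered with -0.34, the lowest value of the list, and not with its rising probe set. The median of the 27 was -0.10, with 18 below 0, and -0.01 over all genes, and without the 5 arrays rich in choroid plexus genes the 5 rises were called and Fosl2 was not (-0.25, adjusted p = 0.0701). Arc, which binds the postsynaptic cytoskeleton and controls AMPA receptor uptake, rose on average by 0.61 ± 0.12 (adjusted p = 0.00464), and its regions differed (F test, adjusted p = 0.0138). In the hippocampus its levels were 9.08, 9.09, 9.25, 9.59 and 9.60 with LiCl and 8.59, 8.55, 8.61, 8.46 and 8.43 with chow vehicle. In the striatum they were 9.15, 9.43, 9.20, 10.26 and 10.27 with LiCl and 8.75, 8.68, 8.67, 8.54 and 8.55 with chow vehicle. Groups were apart in both. In the cortex they were 9.32, 9.10, 9.47, 10.01 and 10.15 with LiCl and 9.62, 9.81, 9.88, 9.25 and 9.37 with chow vehicle with overlapping ranges, and the cortex difference was 0.04 ± 0.19. The 2 LiCl animals numbered 36 and 37 were highest in both the cortex and the striatum. In the hippocampus these animals read 9.09 and 9.25, below the last 2 LiCl replicates at 9.59 and 9.60. In each region the last 2 replicates were the highest with LiCl and the lowest with chow vehicle. Dusp1 rose by 0.37 ± 0.09 (adjusted p = 0.0255) and a second probe set of it was not called (0.24 ± 0.10). Jun, a subunit of AP-1, averaged 0.17 ± 0.046 (adjusted p = 0.0467), with 0.01 in the cortex. Gadd45g, a stress sensor induced by growth arrest and DNA damage, rose by 0.35 ± 0.073 (adjusted p = 0.011). Fos averaged 0.36 ± 0.14 and was not called (adjusted p = 0.161), with 0.08 in the hippocampus, -0.29 in the cortex and 1.29 in the striatum. Egr1 averaged -0.06 ± 0.06 and Nr4a1 -0.14 ± 0.11.

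Other rises were of single genes. Baiap2, which shapes actin in dendritic spines, had an average rise of 0.46 ± 0.065 (adjusted p = 0.000223), with 0.87 in the hippocampus, 0.13 in the cortex and 0.39 in the striatum, and its regions differed (F test, adjusted p = 0.0025). Its other 2 probe sets averaged 0.03 and -0.02. Txnip, an inhibitor of thioredoxin, rose by 0.37 ± 0.082 (adjusted p = 0.016), most in the cortex with 0.68. Steap4, a metal reductase, rose by 0.49 ± 0.11 (adjusted p = 0.0127), and its level of 3.73 was near the floor of the array. Klhdc7a rose by 0.47 ± 0.10 and Tstd1 by 0.37 ± 0.085, with adjusted p-values of 0.015 and 0.0193. The probe set of Tstd1 was dim, with a mean log2 level of 5.71. Mt2A, a metal-binding metallothionein, rose by 0.28 ± 0.048 (adjusted p = 0.00205).

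Some further rises lost their call or shrank without the 5 arrays rich in choroid plexus genes. Sod3, the extracellular superoxide dismutase, averaged 0.44 ± 0.11 (adjusted p = 0.0307), with 0.84 in the striatum. Its striatum levels were 9.23, 8.95, 8.55, 8.19 and 7.70 with LiCl and 7.51, 7.51, 7.97, 7.59 and 7.79 with chow vehicle, and LiCl replicates 1 and 2, the 2 arrays with the most choroid plexus signal, were the highest. Without the 5 arrays over 10000 the Sod3 average was 0.29 (adjusted p = 0.085). Greb1, an oestrogen-regulated gene, went from 0.62 (adjusted p = 0.0415) to 0.54 (adjusted p = 0.147), and Adamts1, a matrix protease, from 0.39 (adjusted p = 0.0407) to 0.27 (adjusted p = 0.178). The called probe set of Greb1 was dim, with a mean log2 level of 5.31, and its groups overlapped in every region. The other probe set of Greb1 averaged -0.05 ± 0.058 and was not called (adjusted p = 0.727). Klhdc7a kept its call at 0.28 (adjusted p = 0.0242), down from 0.47. Txnip and Gadd45g went to 0.33 (adjusted p = 0.0734) and 0.29 (adjusted p = 0.062), and Tstd1 to 0.28 (adjusted p = 0.113). Without these arrays 13 of the 30 leading genes lost their call and none changed direction. The part of choroid plexus in these rises was not tested further. Nr4a3 (0.74), Klf2 (0.65), Ier2 (0.46), Arc (0.68) and Baiap2 (0.54) were as large or nearly so without them.

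Among the falls, Vps52 and Zfp597 were those that kept their call in every alternative. Vps52 is a subunit of the complex that tethers vesicles returning from endosomes to the Golgi. In the hippocampus its levels were 7.36, 7.47, 7.46, 7.75 and 7.95 with LiCl and 8.07, 7.83, 7.70, 8.11 and 8.23 with chow vehicle. In the cortex they ran from 7.25 to 7.58 with LiCl and from 7.62 to 8.01 with chow vehicle. In the striatum they were 7.46, 7.37, 7.04, 7.21 and 7.67 with LiCl and 7.66, 7.63, 7.87, 7.61 and 7.64 with chow vehicle. The groups were apart in the cortex and overlapped in the other 2 regions, by LiCl replicates 4 and 5 in the hippocampus and replicate 5 in the striatum. Its average fell by 0.38 on the log2 scale (SE 0.071, adjusted p = 0.00444). Of its other 2 probe sets 1 was called (-0.34 ± 0.073, adjusted p = 0.0127) and 1 was not (-0.05 ± 0.05). For Zfp597, a zinc finger gene, LiCl levels ran from 7.09 to 7.41, 6.85 to 7.36 and 6.70 to 7.50 in the hippocampus, cortex and striatum. Its chow vehicle levels ran from 7.30 to 7.69, 7.45 to 7.73 and 7.47 to 7.62. The groups were apart in the cortex, and 15 of 15 LiCl arrays lay below the mean of their chow vehicle group. The average was -0.35 ± 0.066 (adjusted p = 0.00454).

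Chrna5, the alpha 5 subunit of nicotinic acetylcholine receptors, had the largest fall. Its probe set was dim, with a mean log2 level of 5.43, under the limit of 6 used for dim probe sets. In the hippocampus its levels were 4.62, 4.72, 4.67, 4.83 and 5.39 with LiCl and 6.17, 6.77, 5.68, 5.07 and 5.69 with chow vehicle. Those of the cortex were 7.20, 5.10, 5.21, 5.22 and 5.38 with LiCl and 5.59, 6.34, 6.49, 7.24 and 6.76 with chow vehicle. Those of the striatum were 5.12, 4.49, 4.55, 4.54 and 4.54 with LiCl and 5.00, 5.22, 5.17, 5.04 and 5.00 with chow vehicle. In the cortex and in the striatum all but 1 of the LiCl arrays were lower than every chow vehicle array, and the exception in both was replicate 1, animal 33. In the hippocampus LiCl replicate 5 reached into the chow vehicle range. The average was -0.74 ± 0.19 (adjusted p = 0.0307), and it lost its call in 10 of 44 fits without 1 array or animal, the highest adjusted p being 0.0976. Without the 5 arrays over 10000 it was -0.77 (adjusted p = 0.0795).

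Other falls named by size covered metabolism, cell surface and signalling. Pnpla1, a lipid enzyme of the skin barrier, averaged -0.64 ± 0.15 (adjusted p = 0.0196). Fcgr2b, the inhibitory IgG receptor of immune cells, averaged -0.52 ± 0.12 (adjusted p = 0.019), from -0.46, -0.54 and -0.56. Bcat1, the cytosolic branched-chain aminotransferase, averaged -0.48 ± 0.12 (adjusted p = 0.0282), with -0.19 in the hippocampus and -0.62 and -0.63 in the cortex and striatum, and a second probe set of it was also called (-0.14 ± 0.038, adjusted p = 0.046). Ass1, the argininosuccinate synthase that supplies arginine, averaged -0.48 ± 0.12 (adjusted p = 0.0269). Fst, which binds activin, averaged -0.35 ± 0.09 (adjusted p = 0.0357), and its second probe set was called too (-0.25 ± 0.063, adjusted p = 0.0297). Kalrn, a protein of dendritic spines, averaged -0.32 ± 0.083 (adjusted p = 0.0357), and its other 3 probe sets averaged between -0.04 and 0. Pde4d, a cyclic AMP phosphodiesterase, fell in the hippocampus (-0.46) and striatum (-0.51) and read -0.01 in the cortex, with an average of -0.33 ± 0.07 (adjusted p = 0.0127; F test between regions, adjusted p = 0.0311). Rap2b, a small GTPase, averaged -0.34 ± 0.088 (adjusted p = 0.0373). The others were Chsy3, Tpbg, Slc26a8 and Adgrl2, with averages from -0.38 to -0.33. The probe sets of Chsy3, Fst, Pde4d, Fcgr2b and Rap2b were dim, with mean log2 levels from 4.63 for Chsy3 to 5.94 for Rap2b. Without the 5 arrays rich in choroid plexus genes Fcgr2b, Bcat1, Fst, Kalrn, Rap2b and Chsy3 were no longer called, with adjusted p-values from 0.0542 to 0.171 and averages of -0.45, -0.41, -0.28, -0.33, -0.33 and -0.42 in this order.

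**Figure D3:**
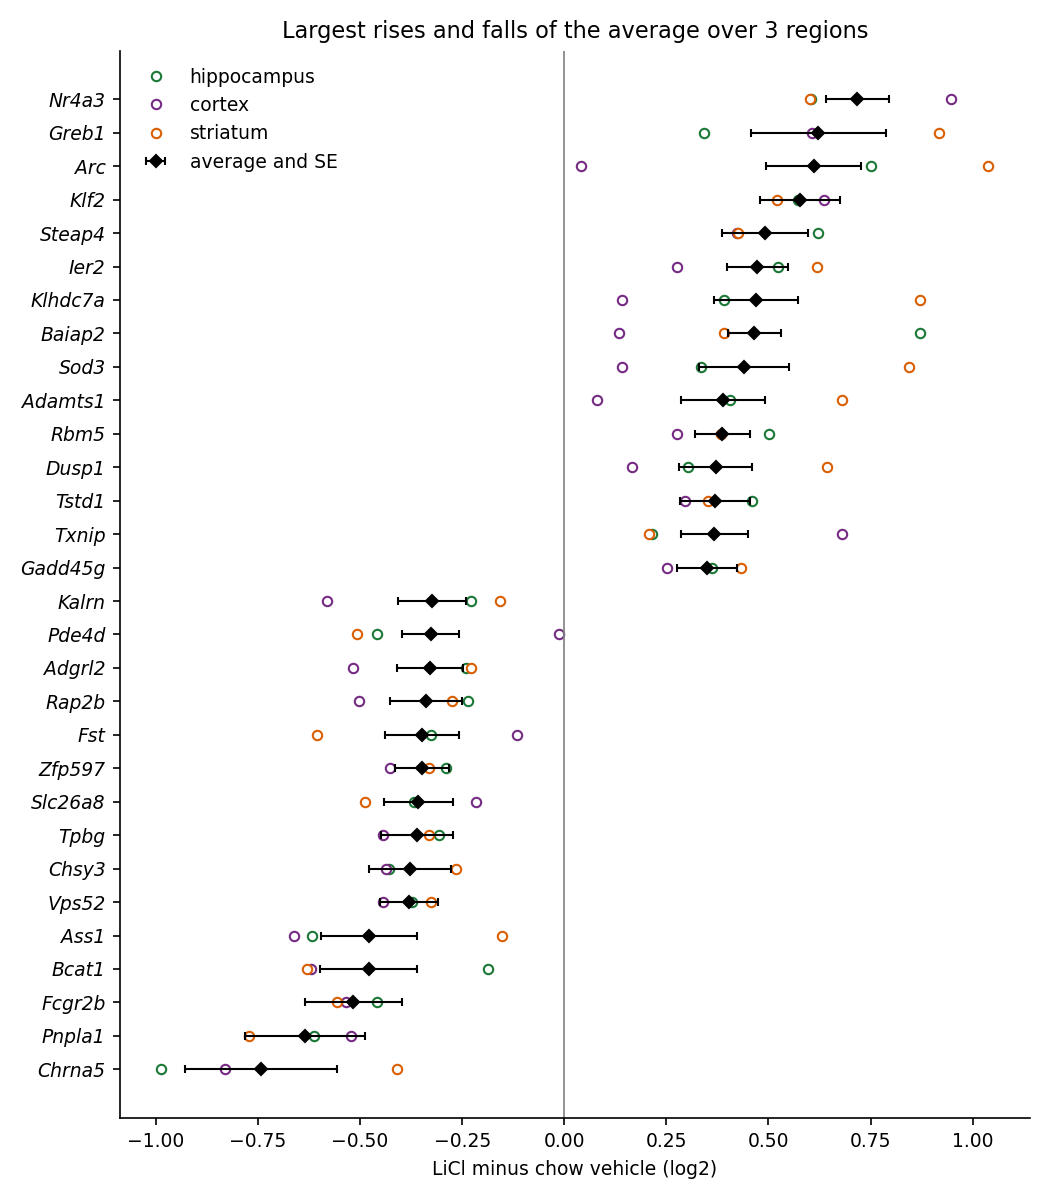
LiCl minus chow vehicle on the log2 scale for the called genes of 1 sign in every region that moved most, 15 up and 15 down. Diamonds give the average with its SE and open circles the 3 regions. Nr4a3 (0.72) and Chrna5 (-0.74) head the 2 ends, and the regions of Arc spread from 0.04 to 1.04 while those of Klf2 spread from 0.52 to 0.64.

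The genes listed as direct targets of lithium were nearly level on average. Over all genes, 0.943% were called higher and 1.06% lower. Of 14 genes on the list 13 were measured and 1 was called, Pgm1, the phosphoglucomutase of glycogen metabolism, which lithium inhibits. Its average was 0.13 ± 0.03 (adjusted p = 0.0242), from 0.14, 0.02 and 0.21. Without the 5 arrays over 10000 it was 0.11 (adjusted p = 0.0902), and its second probe set was not called (0.08 ± 0.043). Gsk3b averaged 0.045 ± 0.043 (adjusted p = 0.659), and this average covered opposite regional values that differed by the F test (adjusted p = 0.00284). In the hippocampus its levels were 8.38, 8.28, 8.32, 8.28 and 8.39 with LiCl and 8.17, 8.28, 8.11, 8.04 and 8.19 with chow vehicle. The cortex levels were 8.21, 8.23, 8.25, 8.39 and 8.29 with LiCl and 8.41, 8.34, 8.65, 8.52 and 8.61 with chow vehicle. The striatum levels were 8.54, 8.61, 8.65, 8.87 and 8.69 with LiCl and 8.46, 8.23, 8.49, 8.64 and 8.57 with chow vehicle. The cortex LiCl arrays lay low and those of the other 2 regions high, each with an overlap at the edge. All probe sets between 8 and 10, the range of Gsk3b, had medians of 0.05 in the hippocampus, -0.11 in the cortex and 0.01 in the striatum. With array spread in the fit 5 probe sets in all differed between regions. The part of this pattern in the Gsk3b values was not tested. Gsk3a averaged -0.064 ± 0.037 (adjusted p = 0.398). The inositol monophosphatases Impa1 and Impa2 averaged -0.02 ± 0.04 and -0.02 ± 0.11, Inpp1, the inositol polyphosphate 1-phosphatase, 0.10 ± 0.053 (adjusted p = 0.319), and the nucleotidases Bpnt1 and Bpnt2 -0.02 ± 0.043 and 0.04 ± 0.036. Fbp1, Fbp2, Pgm2, Grik2 and Arrb2 lay between -0.04 and 0.04. Of these, Grik2, a receptor subunit, and Arrb2, an arrestin, are on the list but are not enzymes that lithium inhibits.

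Pathways downstream of these targets were described by the count of called genes and the median, each gene by its brightest probe set. Counted alike, 0.943% of all genes were called higher and 1.06% lower. In 28 Wnt pathway components and 13 Wnt target genes none was called, with medians of 0.0033 and -0.01. At an unadjusted p under 0.05 the fit held 5180 of 31042 probe sets. Among 44 genes of inositol phosphate and phosphoinositide metabolism, Slc2a13, the proton myo-inositol symporter, averaged -0.18 ± 0.038 (adjusted p = 0.0124) and Pi4ka, which starts phosphoinositide synthesis at the plasma membrane, -0.18 ± 0.037 (adjusted p = 0.00883). Both were smallest in the hippocampus (-0.05 and -0.04). Plcd1, a phospholipase C, averaged 0.18 ± 0.046 but was -0.04 in the cortex. Without the 5 arrays over 10000 Pi4ka was called, and Slc2a13 (-0.16, adjusted p = 0.068) and Plcd1 (adjusted p = 0.121) were not. In 15 protein kinase C genes and substrates, Prkcb (-0.12 ± 0.025, adjusted p = 0.00783) and Gap43, the growth cone substrate (-0.20 ± 0.053, adjusted p = 0.0348), fell, and 3 of 15 lay above 0, against 45.4% of all genes. A second probe set of Gap43 averaged 0.02 ± 0.029 and was not called (adjusted p = 0.852). Without the 5 arrays over 10000 Gap43 was no longer called by its brightest probe set (-0.21, adjusted p = 0.0771). In 29 cyclic AMP genes 6 lay above 0. The kinase regulatory subunit Prkar1b fell by 0.10 on the log2 scale (SE 0.025, adjusted p = 0.0235), and Akap13, an anchoring protein, rose. Without those arrays Prkar1b was no longer called (-0.08, adjusted p = 0.138), while the brightest probe set of Akap13 was and a second was not (0.27, adjusted p = 0.0801). Among other probe sets than the brightest, 1 of Prkacb, the catalytic subunit, averaged -0.23 ± 0.06 (adjusted p = 0.0356) and 1 of Pkia, a kinase inhibitor, -0.27 ± 0.071 (adjusted p = 0.0418). Without those arrays the first was called and the second was not (-0.22, adjusted p = 0.106).

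Of the 40 lists 19 held a called gene, those above included. Calls in the other lists are to be read beside 0.943% of all genes called higher and 1.06% called lower. In 27 synaptic vesicle genes, Rims1 (-0.24 ± 0.045, adjusted p = 0.00368) and Rims2 (-0.21 ± 0.053, adjusted p = 0.0307), scaffolds of the release site, fell with values between -0.17 and -0.35 in every region, and 7 of 27 lay above 0, against 45.4% of all genes. Rims2 was as large without the 5 arrays over 10000 but not called (-0.21, adjusted p = 0.0582). In 20 circadian clock genes, Nr1d2 and Bhlhe40, both repressors, fell. Bhlhe40 did so with -0.56 in the cortex and -0.12 and -0.06 elsewhere. In 23 glucocorticoid target genes 4 rose, Mt2A, Gjb6, Dusp1 and Txnip, and none fell, while Fkbp5 (0.02 ± 0.063) and Sgk1 (-0.01 ± 0.089), widely used markers of this response, did not pass. Of the 4, 3 were called without the 5 arrays over 10000. In 26 autophagy and lysosome genes, Ctss, a cathepsin, and Npc2, a cholesterol carrier, rose and Gabarapl1, Sqstm1 and Mtor fell, with sizes from 0.11 to 0.21. Of 4 probe sets of Sqstm1 only 1 was called, and the others averaged from -0.19 to 0.02. Without those arrays Gabarapl1 and Sqstm1 were called, and Ctss (0.20, adjusted p = 0.0765), Npc2 (0.16, adjusted p = 0.168) and Mtor (-0.10, adjusted p = 0.118) were not. Of the 40 lists, 21 held no called gene, among them neurotrophins and activity-regulated secreted factors (22 genes), survival and apoptosis genes (22), cytosolic heat shock genes (19), GABA receptors (17) and nuclear oxidative phosphorylation subunits (29). In 26 proteasome subunits none was called, although 24 lay below 0, with a median of -0.15 in the cortex and 0.0035 in the hippocampus.

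Markers of glia and vessels are given beside all genes, of which 45.4% had a positive average and 23.5% had 1 sign in the 3 regions. Of all genes 0.943% were called higher and 1.06% lower. The difference from all genes was not tested. Of 18 astrocyte genes 15 were above 0 and 2 rose, Gjb6, connexin 30 (0.31 ± 0.063, adjusted p = 0.00899), and Glul, glutamine synthetase (0.14 ± 0.029, adjusted p = 0.00859). Of 17 microglial genes 14 were above 0, 12 of them in every region, and Ctss rose (0.21 ± 0.051, adjusted p = 0.0278), a call that was lost without the 5 arrays over 10000. The astrocyte and microglial medians were 0.10 and 0.09, against -0.01 over all genes, and 0.10 and 0.13 without the 5 arrays over 10000. Of 21 endothelial and pericyte genes 10 were above 0 in every region. Of 20 oligodendrocyte and myelin genes 11 were above 0, none was called, the median was 0.02 and 10% had 1 sign in the 3 regions. In these bulk samples a change in the number of cells of a type and a change in RNA per cell cannot be told apart. The choroid plexus list had a median of 0.62 with none of 16 genes called, and 0.03 without those arrays. The meningeal and fibroblast list had a median of 0.26 and 0.11, and Mgp, a matrix protein of these cells, averaged 0.34 ± 0.089 (adjusted p = 0.0385) and lost its call without them (adjusted p = 0.0576).

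**Figure D4:**
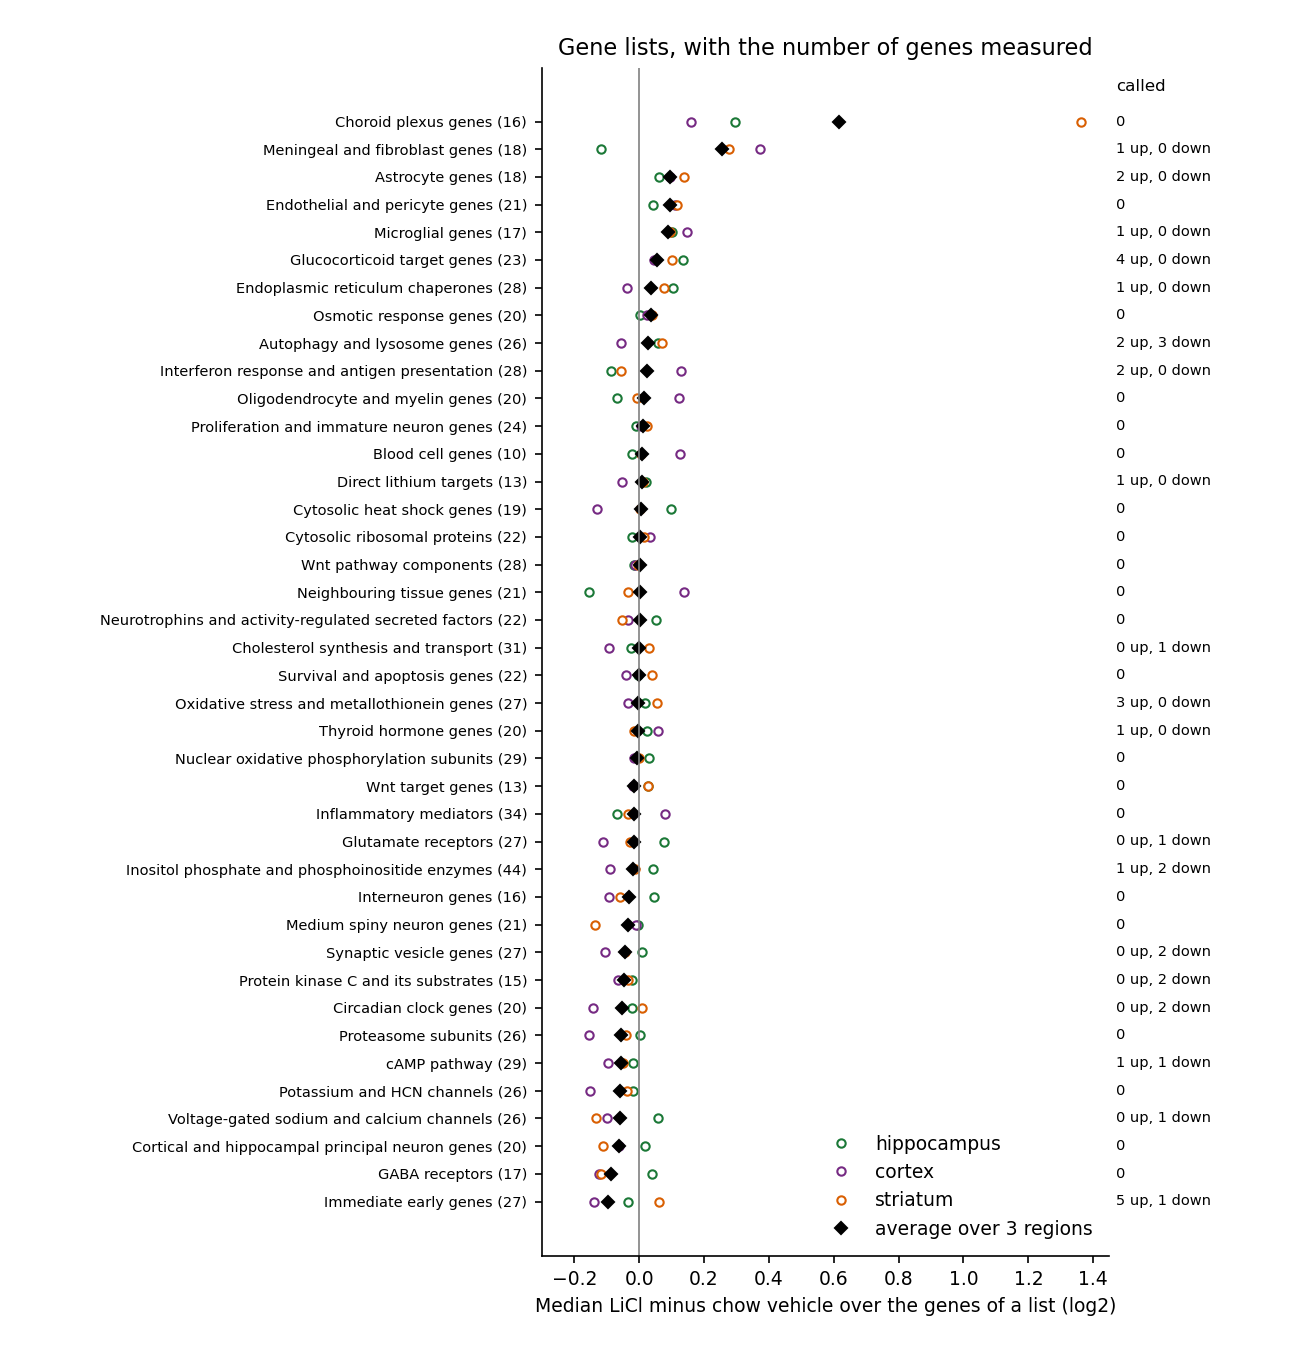
Median LiCl minus chow vehicle on the log2 scale over the genes of each of 40 lists, with the number of genes measured in brackets. Diamonds give the average over 3 regions and open circles the regions, and the numbers of genes called in each direction stand at the right. The choroid plexus list stands apart at 0.62 with 0 called, and the immediate early list is lowest at -0.10 although 5 of its genes rose.

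Whether the average described the regions alike was tested in the same fit. The F test found 5587 probe sets (18% of 31042) whose LiCl effect differed between regions, and 115 of the 638 called on average (18%) were among them. The pairs were unequal: 6293 probe sets differed between hippocampus and cortex, 3841 between striatum and cortex, and 4 between striatum and hippocampus. When the spread of each array was added to the fit, 5 probe sets differed between regions and 720 were called on average, 623 of them shared with the 638. With the regions taken singly, 205 probe sets (0.66%) were called in the hippocampus, 5055 (16.3%) in the cortex and 327 (1.05%) in the striatum. In the cortex dim probe sets had a median difference of 0.095 and those between 8 and 10 on the log2 scale -0.11, and in the hippocampus these were -0.06 and 0.05, while on average they were -0.01 and -0.01. The 5 called genes with the smallest p between regions were Exoc7 and Cops5, which averaged -0.17 and -0.15 with -0.43 and -0.34 in the cortex, Prr13 and Hsd11b1, which averaged 0.15 and 0.26 with 0.36 and 0.59 in the striatum, and Baiap2. Of these Prr13 was no longer called without the 5 arrays over 10000 (0.15, adjusted p = 0.0644). Hsd11b1 regenerates active glucocorticoid, and Cops5 is a subunit of the COP9 signalosome.

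The animals behind the regions only partly overlapped, which allowed a look at animals that had no part in a call. On the 20 cortex and striatum arrays alone, 723 probe sets were called, 207 higher and 516 lower. In the hippocampus arrays of LiCl animals 38 and 39 and chow vehicle animals 54 and 55, which gave no other region, 52.1% of the 723 had the called direction, against 47.8% of all probe sets. For the 207 called higher the share was 58%, against 48.6% of all probe sets with a positive average, and for the 516 called lower it was 49.8%, against 47.1% of those with a negative average. In the 3 LiCl and 3 chow vehicle hippocampus arrays of animals that did take part, the share was 59.8% against 48.2%, with 80.7% against 47.9% for those called higher and 51.4% against 48.5% for those called lower. No test was made of these shares, which rest on 4 and 6 arrays. Genes named for a call were chosen by the fit of all 3 regions, which included these hippocampus arrays. Their direction in the other animals was thus partly fixed by that choice and is no separate result. For Nr4a3 the difference was 0.49 in the other animals and 0.65 in the same animals, for Klf2 0.76 and 0.48, and for Ier2 0.55 and 0.50. For Dusp1 it was 0.78 and 0.01, and for Zfp597 -0.06 and -0.47. Of the named genes called on cortex and striatum, Bcat1 (0.16), Prr13 (-0.12), Cops5 (0.07) and Exoc7 (0.01) went against their call in the other animals. The other named genes called there kept their direction.

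The averages of LiCl were set beside those of lamotrigine, which has its own vehicle, so the 2 comparisons share no arrays. The difference of the 2 averages was called for 26 probe sets (0.0838%), and for 13 of the 575 (2.26%). The 575 were chosen by their LiCl average, which is part of this difference, so the choice itself favours a higher share among them. Rap2b showed the largest contrast among the 30 leading genes. It averaged -0.34 with LiCl and 0.85 ± 0.12 with lamotrigine, a difference of -1.18 ± 0.17 (adjusted p = 0.000152). Nr4a3 averaged 0.72 with LiCl and 0.16 ± 0.084 with lamotrigine, and the difference of 0.55 ± 0.12 also passed (adjusted p = 0.0245). Among the 30 leading genes, Slc26a8, Zfp597 and Rbm5 had the next smallest p-values and did not pass, with differences of -0.51 ± 0.13, -0.39 ± 0.10 and 0.48 ± 0.14. Arc (0.61 and 0.55), Klf2 (0.58 and 0.47), Dusp1 (0.37 and 0.45), Ier2 (0.47 and 0.35) and Gadd45g (0.35 and 0.57) had averages above 0 with both drugs. For Arc the difference was 0.06 ± 0.22 and for Klf2 0.11 ± 0.16. Of these only Gadd45g was called for lamotrigine (adjusted p = 0.0104). Of the 15 named rises 11 were above 0 with lamotrigine, and of the 15 falls 5 were below 0. Over the 320 called rises 42.5% were above 0 with lamotrigine, against 53.3% of all probe sets with a positive LiCl average, and over the 255 called falls 56.9% were below 0, against 43%.

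**Figure D5:**
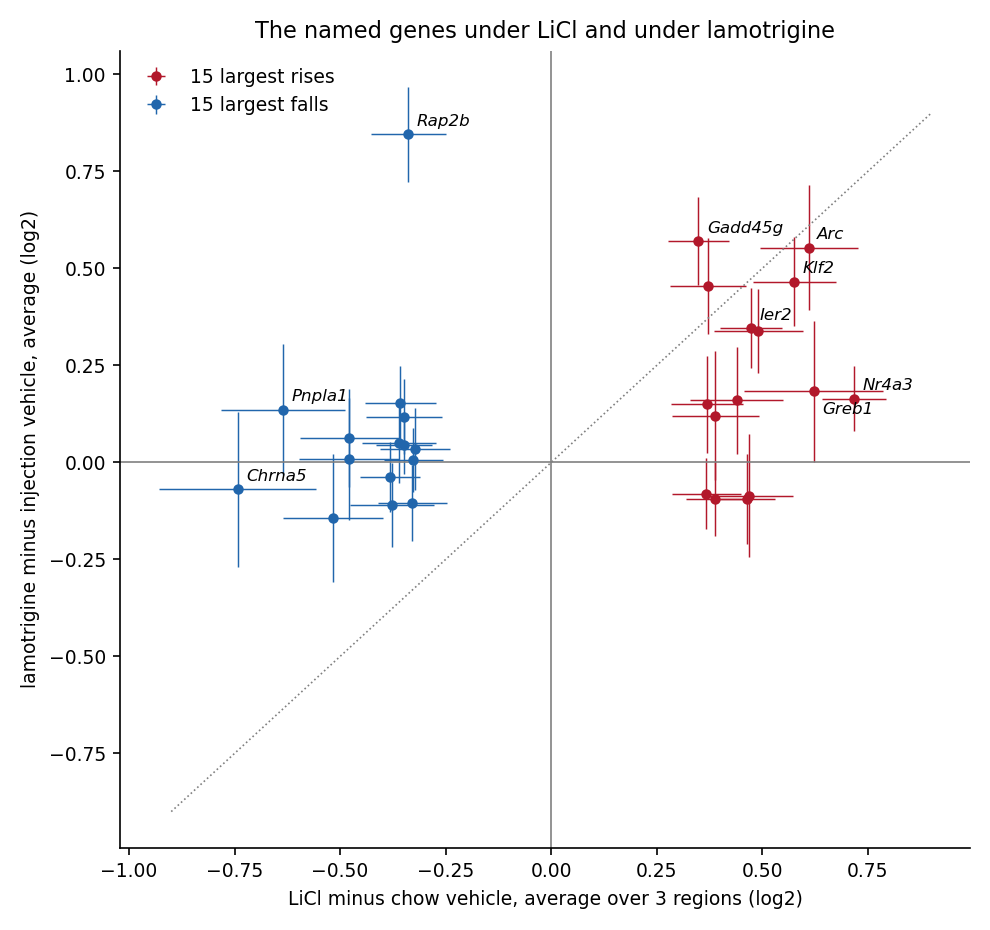
Average over 3 regions of LiCl minus chow vehicle (horizontal) and of lamotrigine minus injection vehicle (vertical), on the log2 scale with SE, for the 15 largest rises (red) and 15 largest falls (blue) with LiCl. The dotted line marks equal values. Rap2b lies at -0.34 and 0.85, Nr4a3 at 0.72 and 0.16, and Arc at 0.61 and 0.55.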

How the data were processed

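RNA of rat brain regions was measured on Affymetrix arrays. The authors deposited linear intensities made by RMA (R 2.7.2, per the labels), of which log2 was taken with no pseudocount. Whether RMA was run on the 60 arrays jointly is unknown here. RMA evens out the distributions of arrays, so effects that move most probe sets are partly removed. Tests covered 31042 probe sets, without 57 controls. Of these, 20826 carry 1 gene symbol of the platform annotation, 436 several and 9780 none here. Groups came from the titles. Nothing but the numbers of the descriptions says that arrays of a group are separate animals, so p-values may in part measure technical spread. The number of arrays limits precision.

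The fit was made with limma 3.58.1 in R 4.3.3 (lmFit with duplicateCorrelation, consensus correlation 0.116, then eBayes with an intensity trend), with 6 group means and 30 arrays. The comparison with lamotrigine used all 60 arrays (correlation 0.133). Tests were two-sided. Fits without 1 array or animal kept the correlation of 0.116. The fit was tested on simulated data. Genes were named by rule: the 15 largest rises and falls among called probe sets with exactly 1 symbol and 1 sign in all regions, the direct lithium targets, called members of the lists, the 5 called genes with the smallest p between regions, and the 5 leading genes with the smallest p against lamotrigine. Of the sequences, motifs and genes of the promoter paragraph, of Fos, Egr1, Nr4a1, Fkbp5 and Sgk1, and of the 2 unnamed probe sets, the choice was made after values were seen. The comparison, the members and the 40 lists were chosen with earlier results of these data known.

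The animal numbers were checked with 291 probe sets picked from the lamotrigine and injection vehicle arrays. Of 22 pairs of arrays with the same number, 18 correlated above 0.5. The other 4 set chow vehicle 52 and 53 of the striatum against other regions, where they matched each other's number. Numbers were used as they stand, and their exchange is among the alternatives. Those were other normalizations, dim probe sets (mean log2 under 6) left out, covariates for spread and choroid plexus level, other blocks, 1 value per animal, all 60 arrays, no intensity trend, pairs of regions, and each array or animal left out. Leaving out all 5 arrays with a choroid plexus sum above 10000 was added after seeing the data.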

Additional observations from a re-analysis of the deposited data

Results flagged for a closer look

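Single arrays that stood far from the other 4 of their group were looked for by Dixon's ratio, the gap to the nearest array over the range of the group, in 210 groups of 5, and 19 passed the 95% value for groups of 5. Chance alone gives about 1 in 20. Chrna5 did so in all 3 LiCl groups: replicate 5 of the hippocampus was high (0.729), as was replicate 1 of the cortex (0.868) and of the striatum (0.9), which are the same animal. Nr4a3 had a high LiCl replicate 1 in the hippocampus (0.711) and Ier2 a low LiCl replicate 3 there (0.744). Sod3 had a high LiCl replicate 3 (0.724) and Gadd45g a high LiCl replicate 2 (0.796) in the cortex. Adgrl2 had a low LiCl replicate 5 in the cortex (0.74), a low LiCl replicate 3 in the striatum (0.731) and a high chow vehicle replicate 2 in the striatum (0.787). Kalrn had a low LiCl replicate 4 in the hippocampus (0.733). Among chow vehicle arrays, replicate 3 of the striatum was high for Vps52 (0.819) and Pgm1 (0.806), and replicate 1 of the striatum for Klhdc7a (0.728). Chsy3 was low on replicate 3 of the hippocampus (0.742) and replicate 5 of the cortex (0.781), Tpbg on the same cortex array (0.813), and Ccn1 on replicate 1 of the cortex (0.806). The summed choroid plexus intensity was high on hippocampus chow vehicle replicate 5 (0.954).

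Of 83 named genes, 17 had LiCl effects that differed between the regions by limma's F test with Benjamini-Hochberg adjustment, and 13 of these were called on average. The share was 18% over all 31042 probe sets and 18% among the 638 called on average. Among the 83, 5 were named for their small p in this test. The adjusted p was 0.0138 for Arc, 0.047 for Klhdc7a, 0.0025 for Baiap2, 0.0311 for Pde4d, 0.00239 for Exoc7, 0.0035 for Prr13, 0.00417 for Hsd11b1 and 0.00687 for Cops5. Among list members it was 0.00796 for Bhlhe40, 0.0307 for Akap13 (0.54 in the hippocampus, 0.01 in the cortex and 0.29 in the striatum), 0.016 for Plcd1, 0.0126 for Creld2, an endoplasmic reticulum protein (0.39, 0.0017 and 0.13; its average of 0.17 was not called without the 5 arrays rich in choroid plexus genes, adjusted p = 0.105), and 0.0378 for Glul (0.02, 0.18 and 0.23). The 4 members of the lithium target list without a call on average that differed were Gsk3b (0.00284), Pgm2 (0.0394), Grik2 (0.0117) and Arrb2 (0.0179). Grik2, a kainate receptor subunit, read 0.26, -0.18 and 0.0024 in the same order of regions, and Arrb2, an arrestin, 0.14, -0.19 and -0.0025. With array spread in the fit 5 probe sets in all differed between regions, and the part of the spread in these differences was not tested further.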

How the results depend on the processing

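The main counts were 638 probe sets called on average, 575 of them with 1 sign in every region, 5587 differing between regions and 26 differing from lamotrigine. The first 2 counts fell to 269 and 248 with the choroid plexus level as covariate, to 393 and 357 without the 5 arrays over 10000, to 404 and 370 with the replicate number as a block, and to 244 and 221 with all 60 arrays in the fit. They rose to 1281 and 1099 with no animal block. The mean of hippocampus and striatum gave 1065 and 1063, and that of hippocampus and cortex 245 and 222. With 1 value per animal 283 were called. The count between regions went to 2106 after quantile normalization, 3457 without dim probe sets and 5 with array spread as covariate, and that against lamotrigine to 141 with no animal block. Replicate numbers do not pair the samples: deviations of LiCl and chow vehicle arrays with the same number correlated above 0.1 in 2 of 15 pairs. Leaving out 1 array gave 401 to 1033, 364 to 889 and 3811 to 6723 for the first 3 counts, and leaving out 1 animal 248 to 910, 235 to 819 and 3378 to 6203. The first count passed a factor of 1.5 without chow vehicle replicate 2 of the cortex (401) or of the striatum (411), both animal 50, without striatum LiCl replicate 5 (1033), and without animals 33 (338), 35 (319), 51 (289) and 52 (277), and so did the second. The third did so without animals 37 (3639), 51 (3637) and 52. The fit without animal 52 left out the arrays of that number, of which the striatum array matched number 53 in the other regions. Of the 30 leading genes 29 kept their call after quantile normalization, all 30 with medians centred or the spread as covariate, 23 with the replicate block, 15 with the choroid plexus covariate or all 60 arrays, 14 with 1 value per animal, and 16, 21 and 14 on cortex and striatum, hippocampus and striatum, and hippocampus and cortex. The 21 of them that are not dim were all called without dim probe sets. The causes were not tested.

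Among the named genes only uncalled members of the lithium target list changed sign. Fbp1 read -0.0053 with medians centred and -0.0552 on hippocampus and striatum, Arrb2 0.0031 without LiCl replicate 2 and chow vehicle replicate 5 of the hippocampus, each the highest of its group in choroid plexus genes, 0.0167 with the choroid covariate, 0.0236 without the 5 arrays and 0.0692 on hippocampus and striatum. Fbp2 read 0.0014 and Pgm2 -0.0045 with the choroid covariate. On cortex and striatum Gsk3b read -0.0205, Impa2 0.0644 and Grik2 -0.0862, on hippocampus and striatum Impa1 0.0061, and on hippocampus and cortex Gsk3b -0.0283 and Pgm2 -0.0641.
Without 1 array or animal the values ran from -0.037 to 0.0289 for Impa1, -0.0777 to 0.0245 for Impa2, -0.0541 to 0.0084 for Bpnt1, -0.0222 to 0.0398 for Fbp1, -0.0133 to 0.0584 for Grik2 and -0.0365 to 0.0073 for Arrb2.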

Other observations

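Some called genes belong to lists not described above, beside 0.943% of all genes called higher and 1.06% called lower. Psmb8, a subunit of the immunoproteasome, rose by 0.35 ± 0.083 (adjusted p = 0.023) and Irf1, an interferon-induced transcription factor, by 0.21 ± 0.051 (adjusted p = 0.0254), the 2 called of 28 interferon response and antigen presentation genes. Both were called without the 5 arrays rich in choroid plexus genes. Slco1c1, the thyroid hormone transporter of the blood-brain barrier, rose by 0.28 ± 0.057 (adjusted p = 0.00859), with 0.22 in the hippocampus, 0.13 in the cortex and 0.50 in the striatum. Fdps, which makes farnesyl diphosphate, averaged -0.17 ± 0.037 (adjusted p = 0.0136) and was the 1 called of 31 cholesterol genes. Scn2b, a sodium channel subunit, averaged -0.12 ± 0.031 (adjusted p = 0.0439) and Gria4, an AMPA receptor subunit, -0.18 ± 0.05 (adjusted p = 0.05, just under the threshold before rounding). Without those arrays Scn2b (-0.12, adjusted p = 0.064) and Gria4 (-0.22, adjusted p = 0.051) were not called, nor were the probe sets of Ctnnb1 (adjusted p = 0.0789), Lamp2 (adjusted p = 0.0795) and Foxp1 (adjusted p = 0.122 for the first) given next. In lists without a call by the brightest probe set, 1 of 4 probe sets of Ctnnb1, beta-catenin of the Wnt pathway, averaged -0.15 ± 0.039 (adjusted p = 0.04), and 2 of 5 of Foxp1, a transcription factor of striatal neurons, -0.21 ± 0.057 and -0.16 ± 0.036 (adjusted p = 0.0493 and 0.0172). Single probe sets of Lamp2, a lysosome membrane protein, and Atg5, which takes part in autophagosome growth, averaged 0.20 ± 0.046 and 0.19 ± 0.045. The p-values are from limma with Benjamini-Hochberg adjustment.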
